A study of Mus musculus with 30 samples.

Results

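The expression of 6 Stat genes, Stat2, Stat3, Stat4, Stat5a, Stat5b and Stat6, was followed through blood development of mouse embryonic stem cells (ESC) with and without functional Sp1 or Sp3. The members were taken by gene symbol from the deposited table, and all 6 were present among its 14685 genes. The set was chosen by the level of Stat6, which was lower in Sp1 mutant than in WT progenitors. The difference between Sp1 mutant and WT progenitors is therefore given for the 6 genes as a description with no test, as are the contrasts that contain it and every comparison of Stat6 that involves progenitors. RNA was sequenced from 5 populations in 3 genotypes of the E14 ESC line with 2 replicates each, 30 samples in all. The populations were ESC, Flk1+ mesodermal cells purified from embryoid bodies, and the hemogenic endothelium stages HE1 (KIT+ CD41- TIE2+) and HE2 (KIT+ CD41+ TIE2+) and the progenitors (KIT+ CD41+ TIE2-), all 3 sorted on day 2 of blast culture. E14 WT cells carry no deletion. Sp1ΔDBD/ΔDBD cells, labelled Sp1_deltaDBD, express a truncated Sp1 protein without its DNA-binding domain, and Sp3-/- cells, labelled Sp3KO, carry a knockout of Sp3. Sp1 and Sp3 are ubiquitous zinc finger transcription factors that recognise the same GC and GT boxes. Both mutants were ESC lines, and whether a line is a single clone was not given in the sources used here, so a difference between genotypes and a difference between lines cannot be told apart. ESC were kept on feeder cells with leukemia inhibitory factor, which activates Stat3, and without feeders before differentiation. The length of embryoid body culture depended on the line.

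Stat proteins are latent cytoplasmic transcription factors. Binding of a cytokine to its receptor activates receptor-bound Janus kinases, which phosphorylate the Stat protein. The Stat proteins then form dimers, enter the nucleus and bind DNA at palindromic sites. Stat3 maintains self-renewal of mouse ESC downstream of leukemia inhibitory factor. Stat5a and Stat5b act downstream of the erythropoietin and interleukin-3 receptors in blood cells, Stat6 downstream of interleukin-4 and interleukin-13, and Stat4 downstream of interleukin-12, while Stat2 belongs to the interferon response. Protein activation is not visible in RNA levels, and the values below are levels of mRNA only.

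The 6 genes lie in 3 regions of the genome (GENCODE M21, GRCm38). Stat6 (chr10:127642986-127660957, plus strand) and Stat2 (chr10:128270559-128292849, plus strand) are 609.6 kb apart. Stat5b (chr11:100780731-100850724, minus strand), Stat5a (chr11:100859351-100885169, plus strand) and Stat3 (chr11:100885098-100939540, minus strand) form a cluster of 158.8 kb. In it, Stat5a and Stat5b are transcribed away from each other from starts 8627 bp apart, and the annotated 3′ ends of Stat5a and Stat3 overlap. Stat4 (chr1:51987148-52107189, plus strand) lies alone. The libraries were stranded, but the strand setting of the authors' calculation was not given in the sources used here, so reads from the overlap could not be assigned to Stat3 or Stat5a with certainty. Since the study deals with Sp1 and Sp3, the 250 bases upstream of each start in the RefSeq table (GRCm38.p6) were searched on both strands for the GC box (GGGCGG or CCGCCC), the GT box (GGTGTGG or CCACACC) and the Stat site (TTCNNNGAA). The 4 windows below show the range, from none of these motifs upstream of Stat6 to 3 GC boxes upstream of Stat5b. They are printed 5′ to 3′ in the direction of transcription, with the motifs found in capitals, and lie at chr10:127642736-127642985 (Stat6, plus strand), chr10:128270248-128270497 (Stat2, plus strand), chr11:100860234-100860483 (Stat5a, plus strand, the downstream of its 2 starts in the table) and chr11:100850582-100850831 (Stat5b, minus strand, the upstream of its 2 starts).
Stat6: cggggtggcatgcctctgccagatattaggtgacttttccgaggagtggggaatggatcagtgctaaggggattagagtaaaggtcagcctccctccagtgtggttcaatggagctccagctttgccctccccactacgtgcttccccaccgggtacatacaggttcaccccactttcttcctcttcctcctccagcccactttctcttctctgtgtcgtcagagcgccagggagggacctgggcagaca
Stat2: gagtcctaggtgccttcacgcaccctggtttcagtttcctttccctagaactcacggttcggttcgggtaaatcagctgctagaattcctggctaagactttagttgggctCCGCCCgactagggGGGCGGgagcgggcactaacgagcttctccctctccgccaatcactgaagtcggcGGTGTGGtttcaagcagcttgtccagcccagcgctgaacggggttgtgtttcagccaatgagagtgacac
Stat5a: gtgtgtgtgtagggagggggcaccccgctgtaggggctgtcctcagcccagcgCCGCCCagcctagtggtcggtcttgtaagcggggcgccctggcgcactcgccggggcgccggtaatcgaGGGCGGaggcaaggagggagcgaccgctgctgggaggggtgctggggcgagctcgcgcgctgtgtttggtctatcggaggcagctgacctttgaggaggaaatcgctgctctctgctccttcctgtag
Stat5b: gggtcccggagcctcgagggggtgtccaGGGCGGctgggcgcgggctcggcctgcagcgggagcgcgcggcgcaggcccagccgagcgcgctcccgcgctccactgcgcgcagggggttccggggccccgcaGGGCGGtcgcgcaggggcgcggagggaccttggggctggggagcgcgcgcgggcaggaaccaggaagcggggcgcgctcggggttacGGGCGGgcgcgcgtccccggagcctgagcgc

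The Stat2 window held 2 GC boxes and 1 GT box, the Stat5a window 2 GC boxes and the Stat5b window 3 GC boxes, while the Stat3 window held 1 GC box. None of the 3 motifs was found upstream of Stat6, either start of Stat4, or the other starts of Stat5a and Stat5b, and no window held a Stat site. GC boxes were present in 32.7% of the 32851 promoter windows of the table, GT boxes in 6.52% and Stat sites in 7.02%. The GC content was 82.0% upstream of Stat5b and 56.8% upstream of Stat6, with a median of 52.4% over all windows. These are matches of letters in a short window and say nothing of whether Sp1 or Sp3 was bound.

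The levels are FPKM values (fragments per kilobase of transcript, scaled to the number of mapped fragments), which the authors had quantile normalised so that each sample had a median of 7.19 FPKM. Sequencing depth cannot be read from such values and is unknown, and error is judged by how far replicates differ. The replicates were biological according to the study's methods. Differences are given on the log2(FPKM + 0.1) scale, with p-values from limma, two-sided and adjusted after Benjamini and Hochberg over 14525 genes in each comparison. Below, a gene rose, fell or was called higher or lower only where the adjusted p was under 0.05. An exact permutation test of 2 against 2 samples cannot give a two-sided p below 0.333. Sp3 was lower in Sp3-/- than in WT cells of each population, by between 2.40 and 3.32 on the log2 scale (limma adjusted p at most 1.13e-06). Sp1 RNA was still present in Sp1ΔDBD/ΔDBD cells, whose deletion removes a part of the gene, with means of 38.3, 28.1, 23.9, 20.4 and 17.6 FPKM from ESC to progenitors beside 49.8, 43.6, 25.2, 29.9 and 29.5 FPKM in WT. It was called lower in Flk1+ cells, HE2 and progenitors (limma adjusted p = 0.0311, 0.0404 and 0.00788), and Sp3 was called higher in mutant HE1 (0.71, limma adjusted p = 0.021). Marker levels followed the population labels, with overlap between some populations. The summed level of 5 pluripotency genes was 1090 to 1330 FPKM in ESC and at most 2.16 FPKM in HE1, HE2 and progenitors. That of 5 mesoderm genes was 318 to 594 FPKM in Flk1+ cells, overlapping with 213 to 362 FPKM in HE1. The 4 endothelial genes peaked in HE1 with a sum of 699 to 1090 FPKM. The sum of 5 blood progenitor genes was 226 to 334 FPKM in progenitors, overlapping with 150 to 236 FPKM in HE2. Replicate 1 of WT and Sp1ΔDBD/ΔDBD HE1, HE2 and progenitors stood apart from replicate 2 by keratin and fibroblast marker RNA. Krt8 had 386 and 35.4 FPKM in the 2 replicates of WT HE1 and 93.7 and 3.8 FPKM in those of Sp1ΔDBD/ΔDBD HE1, and Postn, a fibroblast marker, had 89.8 and 6.74 FPKM and 85.3 and 4.1 FPKM in the same samples. Epcam, an epithelial surface marker, was at most 0.115 FPKM in these 4 samples.

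**Figure D1:**
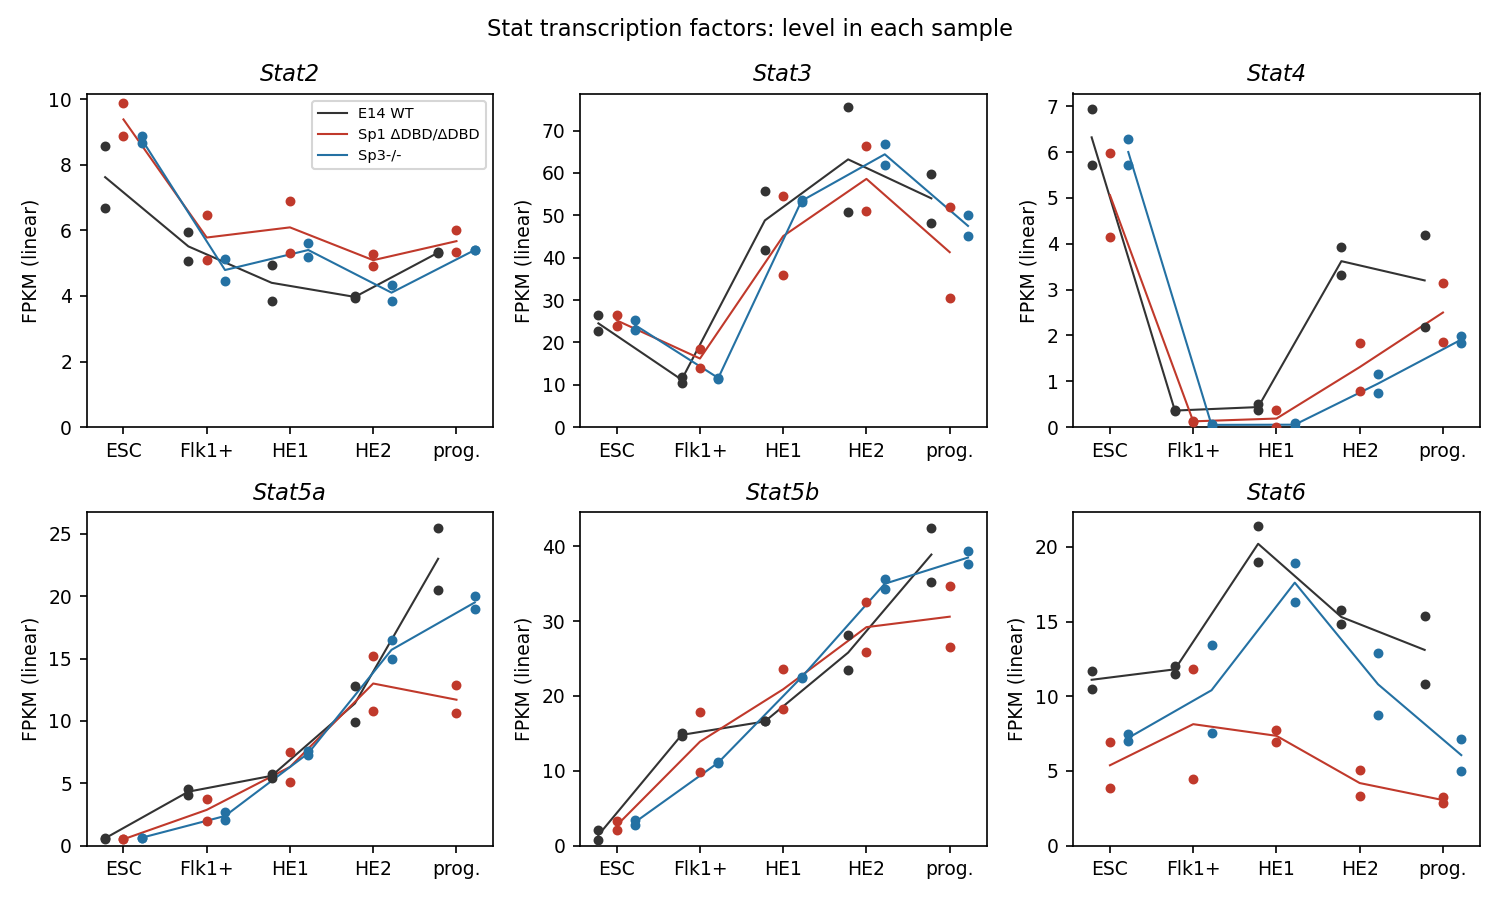
FPKM of the 6 Stat genes (linear axis from 0, a panel for each gene with its own scale) in ESC, Flk1+, HE1, HE2 and progenitor (prog.) cells of E14 WT, Sp1ΔDBD/ΔDBD and Sp3-/- genotype. Points are single samples and lines join the means of 2 replicates. Stat5a and Stat5b were highest in WT progenitors, at up to 25.5 and 42.5 FPKM, Stat3 in HE2 samples, Stat2 and Stat4 in ESC, and Stat6 in WT HE1.

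The first question was how the Stat genes change as WT cells differentiate. Between ESC and Flk1+ cells, 5 of the 6 genes changed, among 52.2% of all genes tested. Stat5a and Stat5b rose 6.40-fold and 11-fold while Stat3, Stat4 and Stat2 fell, and Stat6 had similar levels in both populations. The median log2 difference of the 6 genes was -0.19, and that of all genes 0.03. Later steps each changed 1 or 2 of them: Stat3 rose between Flk1+ cells and HE1 (53.0% of all genes called), Stat4 and Stat5a rose between HE1 and HE2 (21.9%), and Stat5a rose again between HE2 and progenitors (13.2%). The medians of the members at these 3 steps were 0.29, 0.49 and 0.10, and those of all genes -0.08, 0.05 and 0.04.

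Stat3, the mediator of the leukemia inhibitory factor signal, was the most abundant member in 14 of the 15 groups. In WT its values were 22.6 and 26.4 FPKM in ESC, 11.9 and 10.5 in Flk1+ cells, 41.9 and 55.7 in HE1, 50.9 and 75.5 at HE2 and, finally, 48.3 and 59.8 in progenitors. The gene was thus lowest in Flk1+ cells, with no overlap with ESC or HE1. It fell by 1.12 between ESC and Flk1+ cells (SE 0.239, limma adjusted p = 0.000622) and rose by 2.1 to HE1 (SE 0.239, limma adjusted p = 6.39e-07). HE1, HE2 and progenitor samples overlapped, and neither later step was called (limma adjusted p = 0.313 and 0.681). In WT and Sp1ΔDBD/ΔDBD cells Stat3 was higher in replicate 2 than in replicate 1 at each of the 3 blast culture stages, for example 54.5 and 35.8 FPKM in Sp1ΔDBD/ΔDBD HE1. Replicate 1 of these stages is the one with the keratin and fibroblast marker RNA, and the part of that RNA in the Stat3 values was not tested.

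Stat5a and Stat5b, the partners in cytokine signalling of blood cells, moved together. In WT, Stat5b had 2.07 and 0.747 FPKM in ESC, 15 and 14.6 in Flk1+ cells, 16.6 and 16.6 in HE1, 23.5 and 28.1 at HE2 and, finally, 42.5 and 35.3 in progenitors. Stat5a had 0.543 and 0.644, 4.57 and 4.09, 5.45 and 5.74, 9.94 and 12.8, and 25.5 and 20.5 FPKM in the same order. Both were lowest in ESC and highest in progenitors, and no population overlapped with the next. Between ESC and Flk1+ cells Stat5b rose by 3.46 (SE 0.319, limma adjusted p = 3.16e-08) and Stat5a by 2.68 (SE 0.251, limma adjusted p = 3.88e-08). Stat5a rose by a further 1 log2 unit between HE1 and HE2 (SE 0.251, limma adjusted p = 0.00802) and by 1.01 between HE2 and progenitors (SE 0.251, limma adjusted p = 0.00929). The corresponding differences of Stat5b were 0.63 and 0.59 and were not called (limma adjusted p = 0.173 and 0.271). The HE1 to HE2 step of Stat5a was no longer called without WT HE1 replicate 1 (adjusted p = 0.052) or WT HE2 replicate 2 (0.0786), and the last step without WT HE2 replicate 1 (0.108) or WT progenitor replicate 1 (0.106).

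Stat5b was the more abundant gene of the pair in each of the 30 samples. The share of Stat5a in the summed FPKM of both was 23.4% and 21.9% in WT Flk1+ cells, 24.8% and 25.7% in HE1, 29.7% and 31.3% at HE2, and 37.5% and 36.7% in progenitors. The share was therefore higher at each later WT population, with no overlap. In ESC the sum was only 2.61 and 1.39 FPKM, and the shares of 20.8% and 46.3% are poorly determined. Across the 15 group means the 2 genes had a Pearson correlation of 0.967 and a Spearman correlation of 0.993. This describes groups that share a differentiation series, and 2 genes of similar sequence between which reads can be split.

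**Figure D2:**
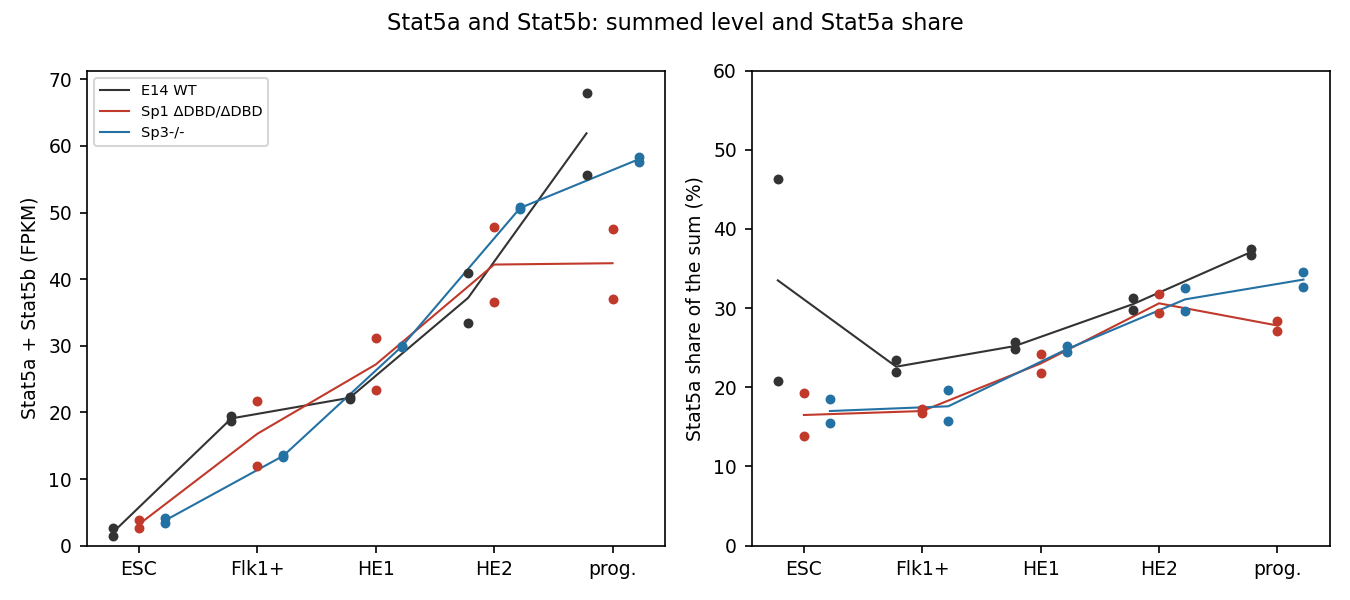
Summed FPKM of Stat5a and Stat5b (left) and the share of Stat5a in that sum in percent (right) in the 5 populations of each genotype. Points are samples and lines join means of 2 replicates. In progenitors the sum was 68.0 and 55.7 FPKM in WT and 37.1 and 47.6 FPKM in Sp1ΔDBD/ΔDBD cells. The Stat5a share there was 27.1% to 28.4% in Sp1ΔDBD/ΔDBD and 32.6% and 34.6% in Sp3-/- cells, both below the WT shares. In Flk1+ cells it was 16.7% and 17.3% in Sp1ΔDBD/ΔDBD and 15.7% and 19.6% in Sp3-/- cells, again below WT. In HE2 the shares of both mutants overlapped with WT.

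Stat4, which transmits interleukin-12 signals in lymphoid cells, showed a different course. Its WT values were 6.93 and 5.71 FPKM in ESC, 0.357 and 0.367 in Flk1+ cells, 0.499 and 0.377 in HE1, 3.31 and 3.92 at HE2 and, finally, 2.19 and 4.20 in progenitors. Thus the gene was highest in ESC, nearly silent in Flk1+ and HE1 cells and present again from HE2 onwards. It fell by 3.79 between ESC and Flk1+ cells (SE 0.528, limma adjusted p = 6.55e-06) and rose by 2.79 between HE1 and HE2 (SE 0.528, limma adjusted p = 0.00101). Stat2, the interferon-responsive partner in the response to type I interferon, varied least. It had 8.56 and 6.67 FPKM in WT ESC, 5.07 and 5.96 in Flk1+ cells, 4.93 and 3.86 in HE1, 3.99 and 3.94 at HE2 and, finally, 5.33 and 5.30 in progenitors. Its fall by 0.45 between ESC and Flk1+ cells (SE 0.173, limma adjusted p = 0.0348) was lost without WT ESC replicate 1 (adjusted p = 0.294) or WT Flk1+ replicate 1 (0.220). Stat6 in WT was highest in HE1, but its difference of 0.77 between Flk1+ cells and HE1 missed the threshold (SE 0.362, limma adjusted p = 0.0816). Without either of the Sp1ΔDBD/ΔDBD Flk1+ samples, which are not part of this comparison but add to the common estimate of the spread, the adjusted p of that step was 0.0326 or 0.0328.

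The second question was how the mutations change these genes. In Sp1ΔDBD/ΔDBD cells Stat6 was the only one of the 6 genes called, once in HE1 (10% of all genes tested called) and once in HE2 (9.67%). None of them was called in ESC (6.06%) or Flk1+ cells (5.54%). In total this was 2 of 24 tests of a member. With the replicate number as a block it was 5, where Stat5b and Stat6 in ESC and Stat4 in HE2 were called as well. The median log2 differences of the 6 genes in ESC, Flk1+, HE1 and HE2 cells were -0.07, -0.40, 0.01 and 0.04, beside 0.00, 0.02, 0.02 and 0.04 over all genes. At an unadjusted limma p under 0.05 there were 2 members each in ESC and Flk1+ cells, where 2755 and 2721 of the 14525 genes passed.

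Stat6, the transcription factor of the interleukin-4 response, had lower values than WT through most of this series. In WT it had 11.7 and 10.5 FPKM in ESC, 12 and 11.5 in Flk1+ cells, 19.0 and 21.4 in HE1, 14.8 and 15.8 at HE2 and, finally, 10.8 and 15.4 in progenitors. In Sp1ΔDBD/ΔDBD cells the values were 6.92 and 3.84, 4.45 and 11.8, 7.73 and 6.97, 5.03 and 3.34, and 2.85 and 3.24 FPKM in the same order. Both mutant samples lay below both WT samples in each population except Flk1+, where replicate 2 of the mutant reached the WT range. Stat6 fell by 1.44 in HE1 (SE 0.362, 2.72-fold lower, limma adjusted p = 0.0161) and by 1.87 in HE2 (SE 0.362, 3.66-fold lower, limma adjusted p = 0.00266). In progenitors the log2 difference was -2.05 (SE 0.362), or 4.14-fold lower, which is the comparison that chose the gene. Same-numbered HE1, HE2 and progenitor samples deviated together, so the Stat6 tests in HE1 and HE2 are not independent of that choice. The differences in ESC (-1.09, SE 0.362, limma adjusted p = 0.0837, and 0.0443 with the replicate block) and Flk1+ cells (-0.69, SE 0.362, limma adjusted p = 0.326) were not called without the block. Stat6 is also in gene groups that the study drew from these samples, which are not independent evidence of its direction. In these bulk samples, fewer cells of a type that expresses a gene and less RNA of the gene per cell cannot be told apart.

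These Stat6 calls rest on few samples. The call in HE1 was lost without WT HE1 replicate 1 (limma adjusted p = 0.0650), without WT HE1 replicate 2 (0.0795) or without mutant HE1 replicate 2 (0.116), with differences between -1.53 and -1.36. The call in HE2 was lost without mutant HE2 replicate 2 (-1.58, limma adjusted p = 0.0529) and when HE2 samples were fitted alone (0.0540). Without mutant Flk1+ replicate 2, the sample in the WT range, Stat6 was called in Flk1+ cells as well (-1.38, limma adjusted p = 0.0391). The same fit called ESC (adjusted p = 0.0328), where no sample had been left out, because the common estimate of the spread was smaller. Whether the mutation affected Stat6 more in a later population than in ESC was tested directly, and no difference was found for Flk1+ cells, HE1 or HE2 (0.40, -0.35 and -0.78, SE 0.512 each, limma adjusted p = 0.813, 0.781 and 0.517). The calls in HE1 and HE2 therefore do not show an effect that begins there.

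Markers of other cell types differed between these samples too. The 4 primitive erythroid markers summed to 44.1 to 104 FPKM in WT HE1 and 12.1 to 22.1 FPKM in Sp1ΔDBD/ΔDBD HE1, without overlap. The 4 megakaryocyte markers summed to 113 to 129 FPKM in WT HE2 and 60.7 to 80.3 FPKM in Sp1ΔDBD/ΔDBD HE2, again without overlap. The megakaryocyte sum was mostly Itgb3, with means of 119 and 68.0 FPKM. Pf4 (1.04 and 1.63 FPKM), Gp9 (0.59 and 0.71) and Gp1bb (0.114 and 0.164) had low means, each higher in the mutant. The samples of Gp9 and Gp1bb overlapped. The 4 endothelial markers summed to 489 to 559 FPKM in WT HE2 and 383 to 487 FPKM in Sp1ΔDBD/ΔDBD HE2, without overlap. Singly, the samples of Tek, Cdh5 and Kit overlapped there, and in HE1 the endothelial sums overlapped. The 4 fibroblast or feeder markers summed to 24.1 to 263 FPKM in WT HE1 and 5.49 to 115 FPKM in the mutant. Among them Col1a1 had 95.0 and 6.08 FPKM in the WT and 4.73 and 0.144 FPKM in the mutant HE1 samples. Col1a2 had means of 44.7 and 13.1 FPKM and Postn of 48.3 and 44.7 FPKM, while Thy1 was at most 0.142 FPKM. In HE2 the fibroblast or feeder markers summed to 8.0 to 46.3 and 3.8 to 43.2 FPKM. The mean of Postn there was 9.36 FPKM in WT and 18.0 FPKM in the mutant. The summed epithelial marker level was 63.0 to 711 FPKM in WT HE1 and 9.12 to 223 FPKM in the mutant, and 14.2 to 217 and 8.48 to 120 FPKM in HE2. The part of these cell types in the Stat6 difference was not tested.

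**Figure D3:**
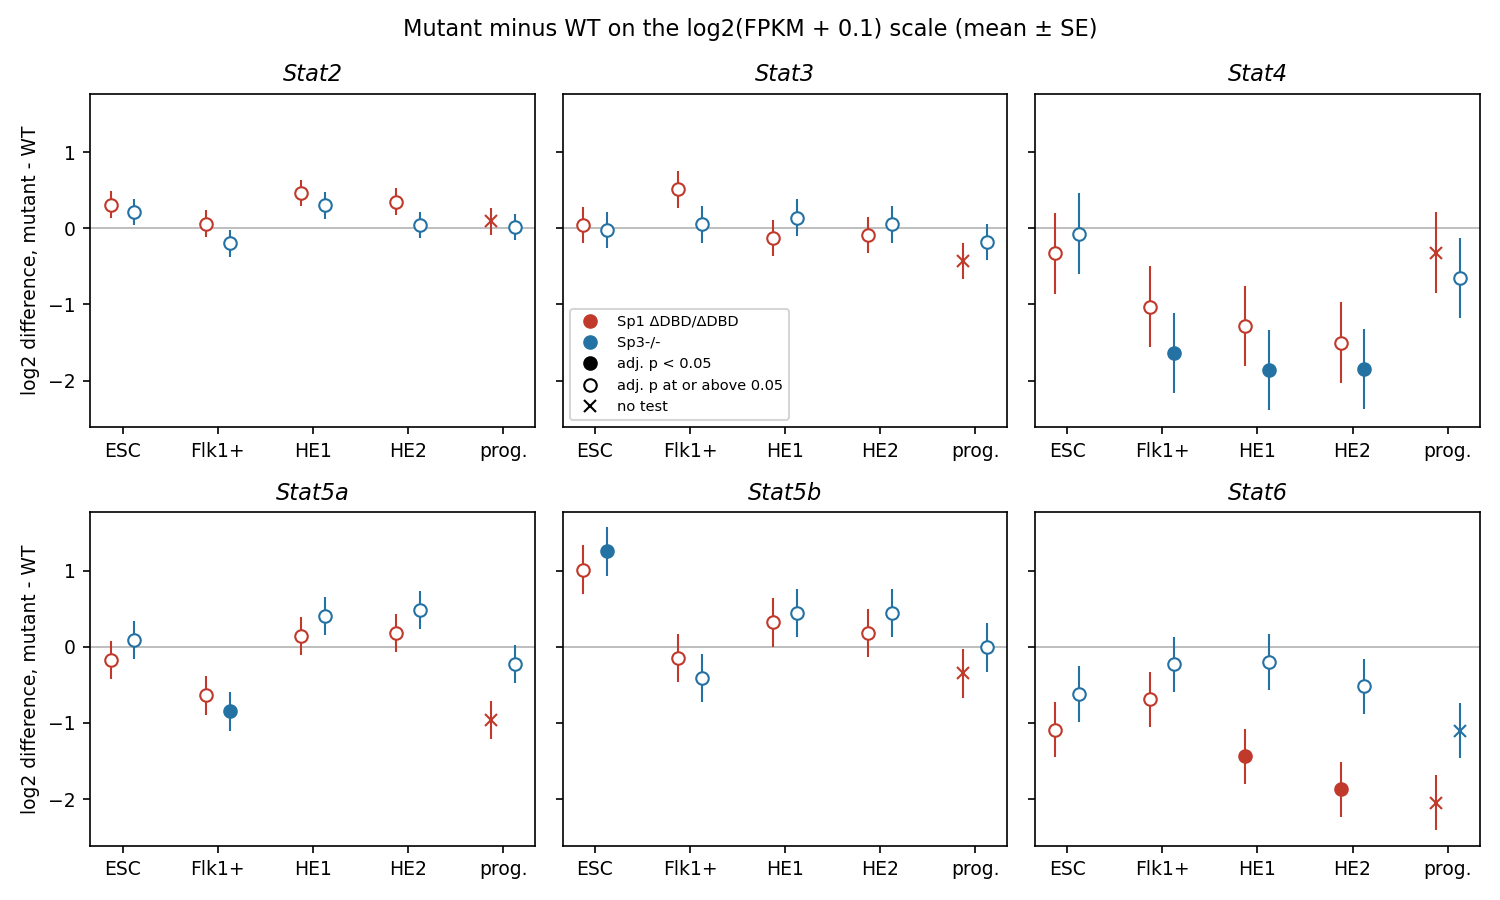
Mutant minus WT on the log2(FPKM + 0.1) scale for each Stat gene in the 5 populations. Bars are standard errors from the limma fit. Filled circles have an adjusted p under 0.05, and open circles do not. Crosses mark comparisons given with no test, those of Sp1ΔDBD/ΔDBD with WT progenitors and that of Stat6 in Sp3-/- with WT progenitors. Stat6 lay below 0 in each Sp1ΔDBD/ΔDBD population, between -0.69 and -2.05, and Stat4 in the Sp3-/- Flk1+, HE1 and HE2 populations, between -1.64 and -1.86.

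No other member was called in Sp1ΔDBD/ΔDBD cells. Stat4 had 0.145 and 0.109 FPKM in mutant Flk1+ cells, below both WT samples, with a difference of -1.03 (SE 0.528, limma adjusted p = 0.311). It had 1.83 and 0.788 FPKM in mutant HE2, below both WT samples, but its difference of -1.50 was not called (SE 0.528, limma adjusted p = 0.0795). In HE1, where the mutant samples had 0.373 and 0.00251 FPKM, it was -1.28 (SE 0.528, limma adjusted p = 0.137). The HE1 value was decided by single libraries, since without mutant HE1 replicate 1 the difference was -2.38 (adjusted p = 0.00527), and in the same fit HE2 was called as well (0.0220). HE2 was also called without mutant HE1 replicate 2 (0.0216), without mutant HE2 replicate 1 (-2.06, adjusted p = 0.0401), with a pseudocount of 1 (-1.03, adjusted p = 0.00828), and in the fit with a replicate block (0.046). Stat5b had 3.31 and 2.09 FPKM in mutant ESC, above both WT samples, with a difference of 1.01 (SE 0.319, limma adjusted p = 0.0685). It was called without WT ESC replicate 1 (1.69, adjusted p = 0.00252) and with the replicate block (0.0243). Stat5a had 1.98 and 3.76 FPKM in mutant Flk1+ cells, below both WT samples, with a difference of -0.64 (SE 0.251, limma adjusted p = 0.157), and was called without mutant Flk1+ replicate 2 (-1.09, adjusted p = 0.0252).

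In Sp1ΔDBD/ΔDBD progenitors, given with no test, the log2 differences from WT were -0.96 for Stat5a, -0.43 for Stat3, -0.35 for Stat5b, -0.32 for Stat4 and 0.09 for Stat2 (median of the 6 genes -0.39, of all genes 0.05, with 8.78% of all genes called). Stat5a had 10.6 and 12.9 FPKM in the mutant and 25.5 and 20.5 FPKM in WT, with no overlap. Stat5b had 26.6 and 34.7 FPKM and 42.5 and 35.3 FPKM, where the nearest samples differed by little. Stat5a, Stat5b and Stat3 lie on chromosome 11, whose 1192 tested genes had lower medians in both mutants than genes elsewhere, between -0.123 and -0.338 in Sp1ΔDBD/ΔDBD and between -0.118 and -0.266 in Sp3-/- cells. Relative to the chromosome median the difference of Stat5a in Sp1ΔDBD/ΔDBD progenitors was -0.60, that of Stat5b 0.02, and Stat5b was called higher in Sp1ΔDBD/ΔDBD ESC (1.24, limma adjusted p = 0.0244). The WT samples are shared by the comparisons of both mutants, and what lowers the chromosome median was not tested.

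In Sp3-/- cells 5 of 29 tests of a member were called, and Stat6 was not among them. Stat5b was higher in ESC (11.3% of all genes called), Stat4 and Stat5a were lower in Flk1+ cells (12.6%), Stat4 again at both HE stages (10.9% in HE1, 13.8% in HE2), and no member was called in progenitors (8.65%). At an unadjusted limma p under 0.05 no member passed in progenitors either, where 3396 genes did. The median differences of the 6 genes from ESC to progenitors were 0.04, -0.32, 0.22, 0.05 and -0.20, beside -0.02, 0.00, 0.05, 0.03 and 0.04 over all genes. Stage markers differed in Flk1+ cells too. The 5 pluripotency genes summed to 94.9 to 97.6 FPKM in Sp3-/- and 31.9 to 41.3 FPKM in WT Flk1+ cells. The 5 mesoderm genes summed to 544 to 594 and 318 to 339 FPKM. Among these genes Nanog, Esrrb and Kdr had lower means in Sp3-/- cells. In HE1 the 5 blood progenitor genes summed to 106 to 112 FPKM in Sp3-/- cells and 53.0 to 77.2 FPKM in WT. The 4 endothelial genes summed to 699 to 701 and 756 to 1060 FPKM there. In HE2 they summed to 351 to 352 and 489 to 559 FPKM. The 4 megakaryocyte markers summed to 50.8 to 70.1 and 113 to 129 FPKM in HE2. Among the blood progenitor genes Kit had a lower mean in Sp3-/- HE1, and Gp9 and Gp1bb had higher means in Sp3-/- HE2. The part of these differences in the Stat4 and Stat5a values was not tested.

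Stat4 in Sp3-/- cells had 5.72 and 6.28 FPKM in ESC, 0.0259 and 0.0740 in Flk1+ cells, 0.0983 and 0.00960 in HE1, 1.16 and 0.745 at HE2 and, finally, 1.98 and 1.83 in progenitors. Its values overlapped with WT in ESC and lay below both WT samples from Flk1+ cells onwards. The log2 differences were -1.64 in Flk1+ cells (SE 0.528, limma adjusted p = 0.0476), -1.86 in HE1 (SE 0.528, limma adjusted p = 0.0291) and -1.85 in HE2 (SE 0.528, limma adjusted p = 0.0261). In ESC it was -0.07 and in progenitors -0.65 (SE 0.528 each, limma adjusted p = 0.983 and 0.512). The Flk1+ and HE1 values of both genotypes were below 0.5 FPKM, where the pseudocount decides the size of a log2 difference. With a pseudocount of 1 the differences in Flk1+ cells and HE1 were -0.38 and -0.45 and not called (adjusted p = 0.338 and 0.245), while that in HE2 was -1.25 and called (0.00216). Relative to the chromosome median the adjusted p in Flk1+ cells was 0.0663, and without an intensity trend it was 0.0515. With each population fitted alone the calls in HE1 and HE2 were lost (0.232 and 0.126).

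Each of these Stat4 calls depended on single libraries. The call in Flk1+ cells was lost without any 1 of its 4 samples, namely WT replicate 1 (limma adjusted p = 0.153) or 2 (0.217) and Sp3-/- replicate 1 (0.277) or 2 (0.1). That in HE2 was lost in the same way, without WT replicate 1 (0.103) or 2 (0.0927) or Sp3-/- replicate 1 (0.0561) or 2 (0.178), with differences between -2.13 and -1.56. That in HE1 remained only without Sp3-/- replicate 1 (0.0466), and was lost without Sp3-/- replicate 2 (0.247) or WT replicate 1 (0.160) or 2 (0.068). The tests of the Sp3-/- effect in these populations against that in ESC gave -1.57, -1.79 and -1.78 (SE 0.747 each) and none was called (limma adjusted p = 0.375, 0.231 and 0.328). Stat4 differed in the same direction in Sp1ΔDBD/ΔDBD cells, with the WT samples shared, and the direct comparison of Sp3-/- with Sp1ΔDBD/ΔDBD cells gave no call for it in any population.

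Stat5b had 3.47 and 2.81 FPKM in Sp3-/- ESC against 2.07 and 0.747 FPKM in WT ESC. Both mutant samples lay above both WT samples, with a difference of 1.25 (SE 0.319, limma adjusted p = 0.0161). The WT samples were themselves far apart, and the value was 0.57 without WT replicate 2 (adjusted p = 0.267), 1.93 without WT replicate 1, and was also not called without Sp3-/- replicate 1 (0.139) or 2 (0.0586), or with ESC fitted alone (0.229). Stat5a had 2.08 and 2.67 FPKM in Sp3-/- Flk1+ cells and 4.57 and 4.09 FPKM in WT, without overlap. The difference was -0.85 (SE 0.251, limma adjusted p = 0.0323). It was lost without any 1 of the 4 samples, WT replicate 1 (0.164) or 2 (0.128) or Sp3-/- replicate 1 (0.263) or 2 (0.0555), relative to the chromosome median (-0.70, adjusted p = 0.0626), and with Flk1+ cells fitted alone (0.165).

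In HE1 and HE2 the Stat5 genes lay on the other side of WT. Stat5a had 7.28 and 7.55 FPKM in Sp3-/- HE1 and 15 and 16.5 FPKM in Sp3-/- HE2, above the 2 WT samples of each stage. Stat5b had 22.6 and 22.4 FPKM in Sp3-/- HE1 and 35.6 and 34.3 FPKM in Sp3-/- HE2, again above WT. The differences were 0.40 and 0.48 for Stat5a (SE 0.251, limma adjusted p = 0.338 and 0.219) and 0.44 at both stages for Stat5b (SE 0.319, limma adjusted p = 0.421 and 0.390), and were not called. Relative to the chromosome median Stat5a in HE2 was called (0.75, adjusted p = 0.0459). The difference between the Sp3-/- effect on Stat5a in HE1 and that in Flk1+ cells was 1.25 (SE 0.355, limma adjusted p = 0.0545), and for HE2 it was 1.32 (SE 0.355, limma adjusted p = 0.0541), tests that were added after the values had been seen. Tests of this kind were made between each pair of later populations, without Sp1ΔDBD/ΔDBD progenitors, and no member was called. The shares of all genes called for Sp3-/- were 4.02%, 2.44% and 3.33% for HE1, HE2 and progenitors against Flk1+ cells, 0.0% and 0.179% for HE2 and progenitors against HE1, and 0.0275% for progenitors against HE2. For Sp1ΔDBD/ΔDBD cells they were 1.53% and 1.43% for HE1 and HE2 against Flk1+ cells and 0.00688% for HE2 against HE1. At an unadjusted limma p under 0.05 between 0 and 2 members passed in each.

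Stat3 and Stat2 were not called in either mutant. Stat3 had 23.9 and 26.5 FPKM in Sp1ΔDBD/ΔDBD ESC and 25.4 and 22.9 FPKM in Sp3-/- ESC, within or next to the WT range. Its differences lay between -0.13 and 0.51 in the 4 Sp1ΔDBD/ΔDBD populations tested and between -0.18 and 0.14 in the 5 Sp3-/- populations (SE 0.239, limma adjusted p at least 0.252). The highest was in Sp1ΔDBD/ΔDBD Flk1+ cells, with 13.9 and 18.4 FPKM above both WT samples. Stat2 had 6.89 and 5.30 FPKM in Sp1ΔDBD/ΔDBD HE1 and 4.90 and 5.27 FPKM in HE2, above the WT samples of each stage, with differences of 0.46 and 0.35 (SE 0.173, limma adjusted p = 0.0992 and 0.230). In Sp3-/- cells its differences were between -0.20 and 0.30 (SE 0.173, limma adjusted p at least 0.288).

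Of 41 tests of a mutant effect in a later population against ESC, none was called by limma (over all genes 1.74%, 3.99% and 2.62% were called for Sp1ΔDBD/ΔDBD Flk1+, HE1 and HE2 cells, and 1.48%, 2.16%, 0.544% and 1.34% for Sp3-/- cells from Flk1+ to progenitors). At an unadjusted limma p under 0.05, 3 members passed for Sp3-/- Flk1+ cells and 0 or 1 for each of the other contrasts. The lowest adjusted p was 0.0733 for Stat5b in Sp3-/- Flk1+ cells (-1.66, SE 0.451), which the replicate block moved to 0.0286. Without WT ESC replicate 1, the sample with 2.07 FPKM of Stat5b, 5 were called, all of Stat5b, with that contrast at -2.34 (limma adjusted p = 0.00596).

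The mutants were also compared directly, without WT samples. Stat6 was higher in Sp3-/- than in Sp1ΔDBD/ΔDBD HE1 by 1.25 (SE 0.362, limma adjusted p = 0.0275), among 13.6% of all genes called, and in HE2 by 1.35 (SE 0.362, limma adjusted p = 0.0160), among 15.9%. In Sp3-/- cells it had 16.3 and 18.9 FPKM in HE1 and 8.73 and 12.9 FPKM in HE2, above the Sp1ΔDBD/ΔDBD samples in each case. No member was called in ESC (9.67% of all genes), Flk1+ cells (7.39%) or progenitors (11.6%), where the numbers of members with an unadjusted limma p under 0.05 were 0, 0 and 1 and those of all genes 3389, 3082 and 3820. The member at an unadjusted p under 0.05 in progenitors was Stat5a, higher in Sp3-/- cells by 0.73 (SE 0.251, limma adjusted p = 0.0653), with 19 and 20 FPKM against 10.6 and 12.9 FPKM, and it was called without either Sp1ΔDBD/ΔDBD Flk1+ sample (0.0316 and 0.032) with a pseudocount of 1 (0.0334) or with the replicate block (0.0468). The Stat6 call in HE1 was lost without any 1 of the 4 samples, Sp1ΔDBD/ΔDBD replicate 1 (0.0634) or 2 (0.151) or Sp3-/- replicate 1 (0.0814) or 2 (0.163). That in HE2 was lost without replicate 2 of either mutant (adjusted p = 0.162 without Sp1ΔDBD/ΔDBD and 0.170 without Sp3-/-) and when HE2 was fitted alone (0.0808).

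Against WT, Stat6 in Sp3-/- cells was not called in any population tested. It had 6.99 and 7.44 FPKM in Sp3-/- ESC, 7.52 and 13.4 in Flk1+ cells and 5 and 7.12 in progenitors. The differences were -0.62 in ESC, -0.23 in Flk1+ cells, -0.20 in HE1 and -0.52 in HE2 (SE 0.362 each, limma adjusted p = 0.310, 0.761, 0.799 and 0.367). In progenitors, where no test was made, the difference was -1.10, and both Sp3-/- samples lay between the WT and the Sp1ΔDBD/ΔDBD samples. Primitive erythroid markers differed in this comparison too. The 4 globin and heme genes summed to 1510 to 3460 FPKM in Sp3-/- and 4500 to 13600 FPKM in WT progenitors. In Sp1ΔDBD/ΔDBD progenitors, where Stat6 was lowest, they summed to 7250 to 9620 FPKM, within the WT range. Most of the sum was Hbb-bh1, and Alas2 overlapped between Sp3-/- (27.8 and 47.0 FPKM) and WT progenitors (55.0 and 35.5 FPKM). None of the 4 genes was under 1 FPKM. Other sums differed there too. The 4 megakaryocyte markers summed to 213 to 243 FPKM in WT, 124 to 192 in Sp1ΔDBD/ΔDBD and 112 in Sp3-/- progenitors. Most of that sum was Itgb3, and Pf4, Gp9 and Gp1bb had higher means in Sp1ΔDBD/ΔDBD than in WT. The 4 fibroblast or feeder markers summed to 16.0 to 52.6, 3.55 to 13.2 and 7.7 to 9.77 FPKM in the same order. The endothelial, mesoderm, macrophage and epithelial sums of each mutant overlapped with WT. The part of these markers in the Stat6 values was not tested.

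In the order of the 15 group means, Stat6 was highest in WT HE1 (20.2 FPKM), followed by Sp3-/- HE1 (17.6) and WT HE2 (15.3), and lowest in Sp1ΔDBD/ΔDBD HE2 (4.19) and progenitors (3.05). The samples of neighbouring groups overlapped at 11 of the 14 places in this order, so that only the 3 at the top and bottom ends were separated. For Stat5a the overlap was at 7 of 14 places and for Stat5b at 8 of 14. The genes whose group means followed Stat6 most closely were Ripk3, Tmem98 and Gatm (Pearson correlation 0.931, 0.912 and 0.898 over 15 groups). Ripk3, a kinase of necroptosis, had 23.2 and 19.4 FPKM in WT HE1 and 6.76 and 3.61 FPKM in Sp1ΔDBD/ΔDBD HE1.

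The closest genes to Stat5a were Msantd1, Gypc (a red cell membrane glycoprotein) and Cbfa2t3 (a co-repressor of blood stem cells and erythroid cells), with correlations of 0.981, 0.981 and 0.976, and those to Stat5b were Letmd1, Dgkz and Phf2 with 0.987, 0.978 and 0.976. Stat3 was followed by Acsl5, Ddah1 and Akr1c13 (0.967, 0.966 and 0.961), Stat4 by Trmt10b, Atp11b and Gca (0.950, 0.950 and 0.944), and Stat2 by Lrsam1, Oxsr1 and 2500002B13Rik (0.952, 0.947 and 0.936). No 2 members shared any of these genes. Among the members, Stat2 ran opposite to Stat5a and Stat5b across the group means (-0.774 and -0.781), Stat3 ran with Stat5a (0.641), and Stat6 was unrelated to Stat5a and Stat5b (0.0504 and 0.0187). All of these correlations describe 15 means of the same 30 samples.

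The other genes of the pathway were taken from a list of 69 kinases, receptors, inhibitors, target genes and interferon genes, 65 of which were in the table and were tested. In WT, 39 of the 65 changed between ESC and Flk1+ cells (22 rose and 17 fell), 41 between Flk1+ cells and HE1 (33 and 8), 16 between HE1 and HE2 (7 and 9) and 17 between HE2 and progenitors (7 and 10). These were 60%, 63.1%, 24.6% and 26.2% of the list, beside 52.2%, 53.0%, 21.9% and 13.2% of all genes. The medians of the list were 0.04, 0.74, -0.08 and 0.03 at these steps, beside 0.03, -0.08, 0.05 and 0.04 over all genes. In Sp1ΔDBD/ΔDBD cells 4, 4, 6, 7 and 4 of the 65 were called from ESC to progenitors, and in Sp3-/- cells 8, 8, 6, 8 and 8. The shares, 6.15% to 10.8% and 9.23% to 12.3%, were near those of all genes.

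The Janus kinases changed together at the step to HE1. Between ESC and Flk1+ cells, where 52.2% of all genes were called, Jak1 and Jak2 rose and Jak3 and Tyk2 fell. Between HE2 and progenitors (13.2% of all genes) Jak2 rose and Jak1 fell, calls lost without any 1 of their 4 samples. Jak1, which pairs with most receptors of the list, had 12.1 and 10.1 FPKM in WT ESC, 18.3 and 19.3 in Flk1+ cells and 42.2 and 41.2 in HE1. Jak2, the kinase of the erythropoietin receptor, had 2.80 and 1.53, 11.2 and 11.8, and 18.7 and 19.1 FPKM, and reached 25 and 24.6 FPKM in progenitors. All 4 kinases rose between Flk1+ cells and HE1, where 53.0% of all genes were called, Jak3 by 2.72 (SE 0.349, limma adjusted p = 2.69e-06), Jak1 by 1.14, Jak2 by 0.71 and Tyk2 by 0.62 (limma adjusted p at most 0.00312). Of these 4 calls only that of Tyk2 was lost without a library, WT HE1 replicate 2. In the mutants, Jak2 was lower in Sp1ΔDBD/ΔDBD ESC by 0.87 (SE 0.179, limma adjusted p = 0.00566) and in Sp3-/- ESC by 0.99 (SE 0.179, limma adjusted p = 0.00165). The first of these calls was lost without WT ESC replicate 1, and both were lost with ESC fitted alone. Jak3 was higher in Sp3-/- ESC by 1.38 (SE 0.349, limma adjusted p = 0.0156), a call lost without any 1 of its 4 samples (0.0648 to 0.0962).

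**Figure D4:**
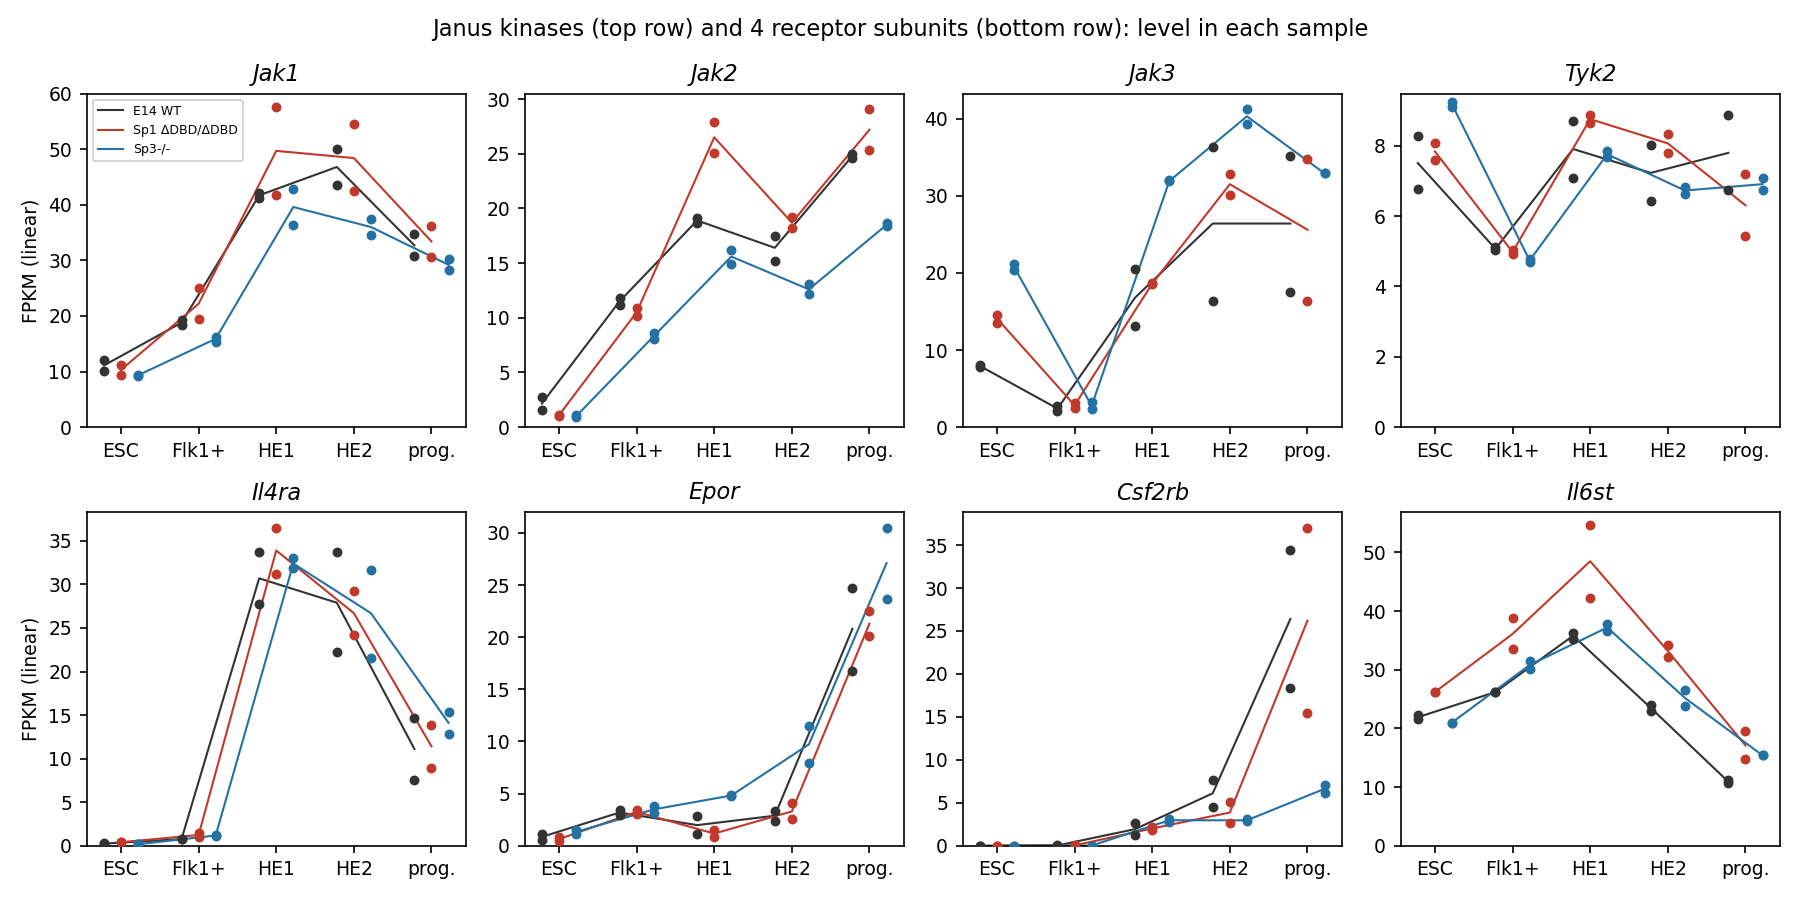
FPKM (linear axes from 0, each panel with its own scale) of the 4 Janus kinases (top) and of 4 receptor subunits (bottom) in the 5 populations. Points are samples, lines join means of 2 replicates, and colours mark E14 WT, Sp1ΔDBD/ΔDBD and Sp3-/- cells. Il4ra was at most 1.41 FPKM in each ESC and Flk1+ sample and at least 27.7 FPKM in each HE1 sample, whatever the genotype.

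Receptors of the members' cytokines came up at different steps. Il4ra, the receptor subunit for interleukin-4 that signals to Stat6, had 0.727 and 0.778 FPKM in WT Flk1+ cells and 27.7 and 33.7 FPKM in HE1, a rise of 5.17 (SE 0.282, limma adjusted p = 5.89e-11). In Sp1ΔDBD/ΔDBD HE1, where Stat6 was lower, Il4ra had 31.2 and 36.5 FPKM and overlapped with WT. Epor, the erythropoietin receptor, rose by 2.80 between HE2 and progenitors (SE 0.403, limma adjusted p = 8.09e-05), from 3.34 and 2.41 to 24.7 and 16.8 FPKM. Epor signals through Stat5, whose genes were highest in WT progenitors. At the same step Lifr, the receptor subunit for leukemia inhibitory factor, fell by 2.19 (SE 0.333, limma adjusted p = 0.000135).

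Among the inhibitors and target genes, Bcl3, a target of Stat3 that modulates NF-kB, had the largest fall of the list between ESC and Flk1+ cells (-5.64, SE 0.512, limma adjusted p = 2.55e-08). The largest rise at that step was of Usp18, an interferon-induced protease (5.27, SE 0.707, limma adjusted p = 4.13e-06, with a mean of 0.00303 FPKM in ESC and 3.88 FPKM in Flk1+ cells), which fell again by 4.88 to HE1 (SE 0.707, limma adjusted p = 1.14e-05). Ccnd1, the cyclin D1 gene, fell by 1.51 between HE1 and HE2 (SE 0.325, limma adjusted p = 0.00269). By role, 4, 4, 0 and 2 of the 4 kinases and 13, 15, 7 and 7 of the 23 receptors were called at the 4 steps. Of the 17 inhibitors 8, 9, 3 and 4 were called, and of the 10 target genes 7, 9, 5 and 3. Of the 11 interferon genes 7, 4, 1 and 1 were called, beside 52.2%, 53.0%, 21.9% and 13.2% of all genes.

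In Sp1ΔDBD/ΔDBD cells the largest falls of the list in ESC and Flk1+ cells were of Ifnar2, a subunit of the type I interferon receptor that signals to Stat2. Ifnar2 had 0.928 and 0.704 FPKM in mutant ESC and 3.93 and 3.14 FPKM in WT ESC, a difference of -1.99 (SE 0.295, limma adjusted p = 0.000347). In Flk1+ cells it fell by 1.27 (SE 0.295, limma adjusted p = 0.0139). The second of these calls was lost without either WT Flk1+ sample or mutant replicate 1 (at most 0.141). Klf4, a pluripotency factor, had the largest fall in HE1 (-1.43, SE 0.318, limma adjusted p = 0.00732, lost without WT HE1 replicate 2 or mutant HE1 replicate 1, at most 0.0812), and Ifi35, an interferon-induced gene, in HE2 (-2.39, SE 0.298, limma adjusted p = 3.44e-05). Fos had it in progenitors (-1.99, SE 0.397, limma adjusted p = 0.00360). The largest rise in Flk1+ cells was of Ptpn1, a phosphatase of Janus kinases (0.58, SE 0.147, limma adjusted p = 0.0240), a call lost without any 1 of its 4 samples (0.0501 to 0.264). In the 3 later populations it was of Il6st, the common gp130 receptor subunit through which Stat3 is activated, by 0.43, 0.49 and 0.62 (SE 0.124 each, limma adjusted p = 0.0347, 0.0155 and 0.00343). Each of these calls was lost relative to the chromosome median, and those in HE1 and HE2 also without either WT sample or mutant replicate 2. With each population fitted alone, the calls of Ifnar2 in ESC, Klf4 in HE1, Ptpn1 and Il6st were lost.

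In Sp3-/- cells Junb, an AP-1 gene, had the largest rise of the list in ESC (1.99, SE 0.389, limma adjusted p = 0.00290), lost without WT ESC replicate 2 (0.0554). Bcl6, a repressor that competes for Stat sites, had it in Flk1+ cells (2.42, SE 0.527, limma adjusted p = 0.00579), lost without replicate 1 of either genotype (at most 0.0564). Epor rose by 1.38 in HE1 (SE 0.403, limma adjusted p = 0.0331) and by 1.72 in HE2 (SE 0.403, limma adjusted p = 0.00899), with 11.5 and 7.95 FPKM in Sp3-/- HE2 against 3.34 and 2.41 FPKM in WT. The HE1 call was lost without WT replicate 1 or either Sp3-/- sample (at most 0.391), and that in HE2 without WT replicate 2 or Sp3-/- replicate 1 (at most 0.0830). Csf2rb, the common subunit of the interleukin-3 and GM-CSF receptors that signals to Stat5, fell by 1.91 in progenitors (SE 0.406, limma adjusted p = 0.00686), with 6.15 and 7.09 FPKM against 18.3 and 34.4 FPKM in WT. This call was lost without WT progenitor replicate 2 or Sp3-/- replicate 1 (at most 0.0839). The remaining genes by the same rule were Klf4 in Flk1+ cells (-0.99), Fos in HE1 (-1.28), Ifi35 in HE2 (-1.36) and Il6st in progenitors (0.49). Their limma adjusted p was between 0.00581 and 0.0474, and each was lost without at least 2 of its 4 samples left out in turn. Apart from that of Bcl6, the calls named here for Sp3-/- cells were all lost with each population fitted alone.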

How the data were processed

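RNA was sequenced from 5 cell populations of 3 E14 genotypes with 2 replicates each. The deposited values are FPKM per gene: the authors aligned paired-end reads of ribosome-depleted total RNA to mm10 with HISAT2 2.1.0, calculated FPKM with StringTie (version 1.3.3 in the submitters' processing notes), removed genes that never exceeded 1 FPKM, and applied quantile normalisation. The annotation was not given in the sources used here. Depth is unknown, and quantile normalisation hides any change shared by all genes. Samples were grouped by their labels. For this report, log2(FPKM + 0.1) of 14525 genes was fitted with limma 3.58.1 (R 4.3.3) as 15 group means over 30 samples, with an intensity trend (15 residual and 3.92 prior degrees of freedom), and p-values were adjusted within each comparison (threshold 0.05). The study states no test for these values. The fit treats samples as independent, but same-numbered HE1, HE2 and progenitor samples deviated together (correlations across 10052 genes of 0.382 and 0.458 between neighbouring stages in WT, 0.649 and 0.544 in Sp1ΔDBD/ΔDBD and 0.161 and 0.127 in Sp3-/- cells), so the degrees of freedom are overstated. Same-numbered WT and Sp1ΔDBD/ΔDBD samples also deviated together in each population (0.255 to 0.481), those of WT and Sp3-/- less (0.00318 to 0.194), although no label ties a number to a shared day or batch. The script was tested on simulated data. The members and lists were chosen with earlier results of these data known. Named are the members, Sp1 and Sp3, the 3 genes most correlated with each member, the 4 kinases, the pathway genes with the largest called rise and fall in each comparison above a mean of 3 FPKM, and markers. An item that this rule names is not reported here. Alternatives were a pseudocount of 1, no filter, a replicate block, no trend, each population fitted alone, centring on the chromosome median, and leaving out each sample. Tests between later populations were added after seeing the data. Promoter windows came from a RefSeq table (GRCm38.p6), in which each member was matched by symbol.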

Additional observations from a re-analysis of the deposited data

How the results depend on the processing

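Counts of called member tests were 2 for Sp1ΔDBD/ΔDBD, 5 for Sp3-/-, 9 at WT steps, 2 between mutants and 0 for effects against ESC. Without single samples they ranged from 1 to 5, 3 to 5, 8 to 10, 1 to 3 and 0 to 5, and the pathway list from 17 to 26 (21 with all samples), 29 to 42 (38) and 103 to 117 (113). A group of 1 sample is then assumed to vary like the other groups. With each population fitted alone, 1 test of a member was called in Sp1ΔDBD/ΔDBD cells, 1 in Sp3-/- cells and 1 between the mutants. In those fits 4 and 10 tests of pathway genes were called, and 6 samples estimate the spread. With a pseudocount of 1, 3 tests of a member were called in Sp3-/- cells. With the replicate number within each population as a block, 5 were called in Sp1ΔDBD/ΔDBD cells and 1 against ESC. No call of a member was lost with the block. Directions turned for 13 uncalled differences. Relative to the chromosome median, Stat2 in Sp3-/- HE2 and progenitors became -0.01 and -0.07, Stat3 in Sp1ΔDBD/ΔDBD HE1 and HE2 0.17 and 0.25, Stat3 in Sp3-/- ESC and progenitors 0.21 and 0.11, its Flk1+ effect against ESC -0.02, Stat4 in Sp3-/- ESC 0.03, Stat5a in Sp1ΔDBD/ΔDBD ESC and Sp3-/- progenitors 0.06 and 0.06, and Stat5b in Sp1ΔDBD/ΔDBD Flk1+ cells and Sp3-/- progenitors 0.01 and 0.28. With a pseudocount of 1 the Stat4 effect in Sp1ΔDBD/ΔDBD Flk1+ cells against ESC became 0.01. Apart from those constructions, the cause was not tested. No WT step was fitted with populations alone or centred on the chromosome.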
